A study of Mus musculus with 12 samples.

Results

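The lungs of Sphk1-/- pups raised in hyperoxia (SK HO) were set against those of wild type pups raised in room air (WT RA), to see how far the exposed knockout lung lay from the normal lung and which genes remained changed. The comparison was between 6 of the 12 arrays of the series, 3 per group, over all 41345 transcripts measured on them. The spread behind its test was estimated from all 12 arrays. Sphk1 encodes sphingosine kinase 1, which makes the signalling lipid sphingosine-1-phosphate.

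SK HO pups carried the Sphingosine Kinase-1 knock out and breathed 75% oxygen for 7 days from the age of 1 day, and WT HO pups, wild type, had the same exposure. SK RA pups carried the knock out and WT RA pups were wild type, and both were kept in room air over the same 7 days from the age of 1 day. Litters held at most 6 pups, and nursing mothers alternated between oxygen and room air. RNA came from the superior lobe of the right lung, 1 mouse per array. The deletion was of the whole animal and not of a cell type. The study's methods describe the knockout line as backcrossed to C57BL/6 for a pair of generations and its controls as of the same mixed background, so that alleles other than Sphk1 may differ between SK and WT pups. SK HO and WT RA pups differed in both genotype and oxygen. Their difference was therefore read beside the 4 comparisons that change 1 of the factors at a time.

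Oxygen at high levels injures the capillary endothelium and the alveolar epithelium and stops the formation of alveoli in newborn mice, which makes it a model of bronchopulmonary dysplasia. DNA damage by oxygen activates the transcription factor p53, which induces the cell cycle inhibitor p21 (Cdkn1a). Genes of the G2 phase and mitosis are switched on in dividing cells, and they are repressed when p21 holds cells in arrest. The transcription factor NRF2 induces antioxidant enzymes. Chemokines draw leukocytes into the injured lung.

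Sphk1 itself had log2 values of 5.70, 6.28 and 5.57 in SK HO, against 5.37, 4.90 and 5.40 in WT RA. In WT HO it was at 6.79, 7.50 and 7.04, and in SK RA at 5.59, 5.78 and 5.84. It was lower in SK HO than in WT HO by 1.26 (log2 difference -1.26, adjusted p = 0.00816) and did not pass the test in SK HO against WT RA (0.62, adjusted p = 0.233). No SK RA array was below a WT RA array. The sources used do not place the Sphk1 probes against the deletion, and the transcript level therefore does not check the labels. Lung markers were high in both groups: Sftpc, the surfactant protein of alveolar type 2 cells, averaged 13.20 ± 0.11 in SK HO and 13.30 ± 0.04 in WT RA (SD, n = 3 each), and Ager, a marker of type 1 cells, 11.96 ± 0.09 in SK HO and 11.75 ± 0.03 in WT RA.

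The median log2 value of the arrays ranged from 4.76 to 4.99, with SK RA 1 and SK HO 1 the highest, at 4.99 and 4.89. On the second principal component (16.1% of the variance) these same 2 arrays stood apart from the other arrays of their groups. Y-linked genes had a mean of 6.67 and 6.95 in SK HO 1 and 2 and 6.62 in WT RA 3, against 3.18 in SK HO 3 and 2.88 and 3.02 in WT RA 1 and 2, although the methods name male pups. With the Y-linked mean as a covariate 519 transcripts were called in SK HO against WT RA, in place of 831. All 3 WT HO arrays were low, at 3.07 to 3.29, and of the SK RA arrays 1 was high (6.81) and the others low (3.05 and 2.95), so that the groups were unequal in this signal. With the covariate, SK HO against WT HO gave 1659 calls in place of 2374.

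Of the 41345 transcripts, 831 passed the test in SK HO against WT RA (limma fit over all 12 arrays, Benjamini-Hochberg adjusted p under 0.05), or 2.01%. Of these, 404 (0.977%) were higher and 427 (1.03%) lower in SK HO. They carried 659 gene names, and 412 transcripts (0.996%) differed at least 2-fold, 212 upward and 200 downward. For all 831 called transcripts the SK HO arrays lay entirely on 1 side of the WT RA arrays, which held for 20.2% of all transcripts. At an unadjusted p under 0.05 the count was 6004 (14.5%). WT HO against WT RA, with the same 3 control arrays, gave 6171 called transcripts (14.9%), 3547 higher and 2624 lower. SK HO against WT HO gave 2374 (5.74%), SK HO against SK RA 967 (2.34%) and SK RA against WT RA 474 (1.15%). The count of 831 was 292 when the fit held the arrays of SK HO and WT RA alone. It was 374, 332 and 378 without WT RA 1, 2 or 3, and 478 without SK HO 2. For SK HO against WT HO it was 1349 without SK HO 1 and 1322 without SK HO 3.

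The distance of each lung from the WT RA mean was taken as the root mean square of its log2 differences over all transcripts. It was 0.503, 0.535 and 0.446 in the SK HO lungs, against 0.632, 0.624 and 0.614 in the WT HO lungs. Every SK HO lung lay nearer to the WT RA mean than every WT HO lung. The means were 0.495 ± 0.045 in SK HO and 0.623 ± 0.009 in WT HO (SD, n = 3 each), a difference of -0.129 (exact permutation test, two-sided p = 0.1, the smallest p that 3 against 3 arrays allow, so that the threshold could not be reached). The SK RA lungs were at 0.583, 0.430 and 0.439, and overlapped the SK HO lungs (difference SK HO minus SK RA 0.011, exact permutation p = 0.8). The WT RA lungs, each set against the mean of the other 2, lay at 0.387, 0.355 and 0.422, below every SK HO lung. Between single lungs the median distance was 0.550 among the 3 SK HO lungs (0.460 to 0.609), 0.552 for SK HO against WT RA and 0.558 for SK HO against WT HO. By these medians, the SK HO lungs lay about as far from each other as from the lungs of WT RA and WT HO.

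**Figure D1:**
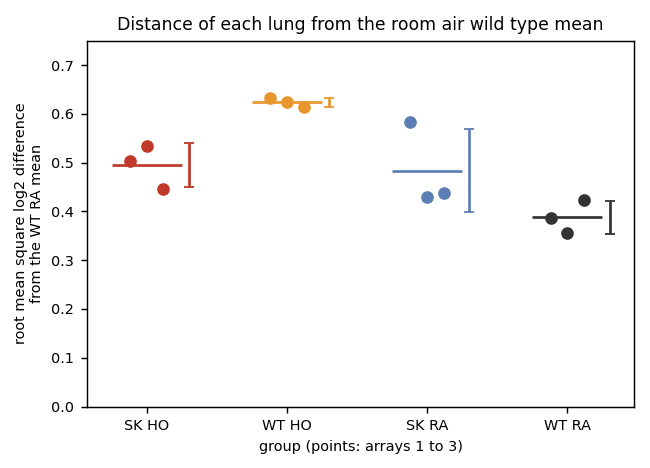
Root mean square log2 difference of each array from the WT RA mean over all 41345 transcripts, by group; points are arrays, bars the mean, error bars the SD. The WT RA arrays are each set against the mean of the other 2, and the SK HO arrays (0.446 to 0.535) lie below the WT HO arrays (0.614 to 0.632).

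Among named genes the largest increase was that of Saa3, an acute phase protein, whose log2 values were 8.50, 10.58 and 9.10 in SK HO, against 4.99, 5.72 and 5.42 in WT RA. It was 16.2-fold higher (log2 difference 4.01, standard error 0.46, adjusted p = 0.00169). Serpina3n, a secreted serine protease inhibitor of the acute phase, was at 9.21, 11.16 and 8.12 in SK HO, against 6.26, 5.32 and 5.84 in WT RA (12.9-fold higher, adjusted p = 0.00885). For both genes the SK HO lungs differed widely among themselves, with SK HO 2 the highest, and did not overlap WT RA. Eda2r, a p53-induced receptor of the TNF receptor family, was much tighter, at 7.54, 7.39 and 7.59 in SK HO, against 3.43, 4.15 and 3.94 in WT RA (12.7-fold higher, log2 difference 3.67, standard error 0.18, adjusted p = 1.19e-05). It had the smallest adjusted p of the 30 genes described next.

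The other genes among the 15 with the largest increase were Ano3, Cdkn1a, Ahnak2, Ptgs2, Ccl2, Ccl3, Neat1, Ccng1, Zmat3, Slc7a11, Snhg15 and Inhba, with log2 differences of 2.05 to 2.93. Ptgs2, the inducible cyclooxygenase of prostaglandin synthesis, was at 7.51, 8.76 and 8.33 in SK HO, against 5.71, 5.81 and 5.42 in WT RA (5.87-fold higher, adjusted p = 0.00187). Neat1, the noncoding RNA that builds paraspeckles, was at 9.61, 9.60 and 9.52 in SK HO, against 7.49, 6.86 and 7.29 in WT RA (5.14-fold higher, adjusted p = 0.00312). Neat1 was the 1 gene of these 15 that also passed in SK RA against WT RA (log2 difference 2.04, adjusted p = 0.00972). Its difference in SK HO against SK RA was 0.32 (adjusted p = 0.74).

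The largest decreases were those of Vsnl1, Aplnr, Glp1r, Prss35, Adcy8, Prdm8, Fam162b, Kit, Gbp4, Nxpe4, Slc4a1, Cdkn2c, C1qtnf3, Slitrk6 and Chad, with log2 differences of -2.72 to -1.78. Aplnr, the apelin receptor of capillary endothelium, was at 7.34, 7.06 and 7.74 in SK HO, against 9.89, 9.94 and 10.24 in WT RA (6.24-fold lower, adjusted p = 0.00102). Glp1r, the receptor of glucagon-like peptide 1, was at 8.99, 8.34 and 9.07 in SK HO, against 11.26, 11.38 and 11.42 in WT RA (5.87-fold lower, adjusted p = 0.00102). Vsnl1, a calcium sensor protein, was at 6.81, 5.74 and 7.45 in SK HO, against 9.29, 9.16 and 9.71 in WT RA (6.60-fold lower, adjusted p = 0.0201). No SK HO array reached the WT RA arrays in these genes, and SK HO 2 was the lowest of its group in all 3. Nxpe4 and Prdm8 had log2 differences of -1.95 and -2.29 (adjusted p = 0.00056 and 0.00495).

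Of these 30 genes, 24 passed in all 6 fits that left out 1 array. Ccl2 did not pass without WT RA 1, 2 or 3 or SK HO 3 (adjusted p = 0.139, 0.121, 0.11 and 0.0869), Vsnl1 not without WT RA 1, 2 or 3 or SK HO 2 (0.066, 0.0636, 0.0808 and 0.0676), and Prss35 not without WT RA 1, 2 or 3 (0.0952, 0.121 and 0.111). Gbp4 did not pass without WT RA 1 or SK HO 1, 2 or 3 (adjusted p = 0.078, 0.0598, 0.0743 and 0.0575), C1qtnf3 not without WT RA 2 (0.0525), and Slitrk6 passed in no such fit but that without SK HO 3 (0.0385, the others 0.0503 to 0.151).

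**Figure D2:**
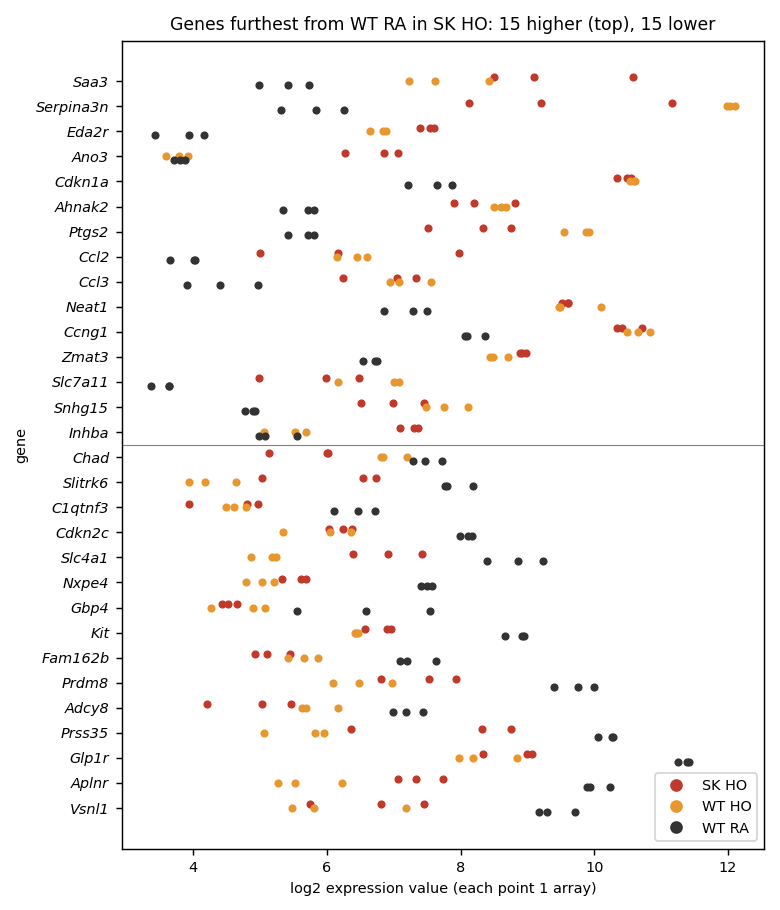
Log2 values (x axis) of the 15 genes with the largest increase and the 15 with the largest decrease in SK HO against WT RA (y axis); each point is 1 array, in rows of SK HO, WT HO and WT RA. As in all 831 called transcripts, the SK HO arrays do not overlap the WT RA arrays in any of the 30 genes. In Ano3 and Inhba the WT HO arrays lie among or next to the WT RA arrays.

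Genes of the G2 phase and mitosis had the largest share of members called among the 42 gene lists. Of the 33 measured, 31 were lower in SK HO than in WT RA and none was higher, against 2.01% of all transcripts called, and their median log2 difference was -1.22, against 0.0038 over all transcripts. In bulk tissue, fewer dividing cells and less of these RNAs per dividing cell cannot be told apart. Mki67, the nuclear proliferation antigen Ki-67, was at 8.54, 8.33 and 8.38 in SK HO, against 9.91, 9.91 and 9.82 in WT RA (2.75-fold lower, log2 difference -1.46, standard error 0.13, adjusted p = 0.00047). Prc1, which bundles the microtubules of the central spindle, was at 6.52, 6.91 and 6.99 in SK HO, against 8.46, 8.66 and 8.34 in WT RA (3.20-fold lower, adjusted p = 0.000957). Ccnb2, the mitotic cyclin B2, was at 7.12, 7.46 and 7.19 in SK HO, against 8.65, 8.95 and 8.68 in WT RA (2.84-fold lower, adjusted p = 0.000718). The lungs of both groups were tight and far apart in these 3 genes.

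The other called members lay between -1.67 (Depdc1a) and -0.71 (Spc25). They included the kinetochore proteins Ndc80 (-1.47), Nuf2 (-1.42) and Cenpe (-1.40), the spindle motor Kif11 (-1.41), the kinases Plk1 (-1.30), Bub1 (-1.29) and Aurkb (-1.18), and Top2a (-1.28), which untangles chromosomes. Incenp and Nek2 did not pass (log2 differences -0.79 and -0.69, adjusted p = 0.067 and 0.077), though their arrays did not overlap either. The count of members called stayed between 25 and 30 in the 6 fits that left out 1 array. Against WT HO, 31 of the 33 genes were higher in SK HO (median 1.42, against 5.74% of all transcripts called), and in WT HO against WT RA all 33 were lower (median -2.71, against 14.9% called). Mki67 was at 5.74, 5.93 and 6.02 in WT HO, so that the SK HO lungs lay between the other pair of groups.

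In SK HO against SK RA, where 2.34% of all transcripts were called, none of the 33 passed in either direction, with a median of 0.18. In SK RA against WT RA, where 1.15% were called, 32 were lower, with a median of -1.45. Mki67 was at 8.31, 8.04 and 8.15 in SK RA, just below the SK HO lungs. The mean over the 33 genes, relative to the WT RA mean, was -1.30, -1.12 and -1.27 in the SK HO lungs, and -1.57, -1.37 and -1.24 in the SK RA lungs. For Mki67 the difference SK HO minus SK RA was 0.25 (95% interval -0.03 to 0.53, adjusted p = 0.418).

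Promoters of these genes are known to carry the cell cycle homology region, TTTGAA, and CCAAT boxes, through which dividing cells control them. The window from 250 bases before to 50 bases after the start in RefSeq (mouse GRCm38.p6) was at hand for 26 of the 33 genes, with 27 promoters. TTTGAA, searched on both strands, was in 20 of them (74.1%), against 17.9% of 32851 promoters of all genes, and CCAAT was in 20 (74.1%), against 37.4%. Both were in 63.0%, against 6.95%. Such a match is a description of the letters and not a site shown to act. Those of Mki67, Ccnb2 and Prc1 are given as the called members with both motifs in the first promoter listed and the smallest adjusted p. Members on a single chromosome were left out of the choice, and the promoters shown were chosen for holding both motifs. Each runs from 200 bases before to 20 bases after the start, 5′ to 3′, with TTTGAA and CCAAT (or the reverse complement) in capitals.
Mki67 (chr7:135716360-135716579, minus strand): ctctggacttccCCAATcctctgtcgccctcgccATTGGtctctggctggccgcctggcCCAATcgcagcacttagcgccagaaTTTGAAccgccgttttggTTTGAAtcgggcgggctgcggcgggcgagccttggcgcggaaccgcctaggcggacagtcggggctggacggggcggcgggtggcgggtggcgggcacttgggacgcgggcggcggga
Ccnb2 (chr9:70421535-70421754, minus strand): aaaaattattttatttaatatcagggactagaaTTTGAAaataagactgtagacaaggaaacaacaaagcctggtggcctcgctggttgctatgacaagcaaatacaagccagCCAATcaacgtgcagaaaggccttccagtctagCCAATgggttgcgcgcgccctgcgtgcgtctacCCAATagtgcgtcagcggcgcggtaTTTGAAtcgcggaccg
Prc1 (chr7:80294251-80294470, plus strand): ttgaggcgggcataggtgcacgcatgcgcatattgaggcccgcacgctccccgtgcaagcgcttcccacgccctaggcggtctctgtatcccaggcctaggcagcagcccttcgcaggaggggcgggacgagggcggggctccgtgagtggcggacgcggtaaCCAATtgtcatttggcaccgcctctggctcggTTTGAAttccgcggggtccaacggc

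Genes of DNA replication went the same way with fewer calls. Of 27 measured, 14 were lower and none higher in SK HO than in WT RA, against 2.01% of all transcripts called, with a median of -0.75, and all 27 estimates were negative. Rrm2, a subunit of the reductase that makes deoxynucleotides, was at 5.98, 6.15 and 6.34 in SK HO, against 7.38, 7.52 and 7.44 in WT RA (2.44-fold lower, adjusted p = 0.00312). The catalytic subunit of polymerase epsilon, Pole, and the helicase subunits Mcm5 and Mcm6 had log2 differences of -1.17, -1.08 and -0.95. The count was 6, 4 and 6 without WT RA 1, 2 or 3, and 6 and 7 without SK HO 1 or SK HO 3. Pcna, the sliding clamp, was at -0.44 and did not pass (adjusted p = 0.14). Of 13 genes of homologous recombination and the Fanconi pathway, 5 were lower and none higher (median -0.79): Rad51ap1 (-1.02), Blm (-0.92), Brca1 (-0.90), Fancd2 (-0.80) and Chek1 (-0.68). That count was 3, 1 and 3 without WT RA 1, 2 or 3 and 3 without SK HO 1. Set against SK RA, none of the 27 and none of the 13 passed in SK HO. In SK RA against WT RA, 15 of the 27 and 6 of the 13 were lower, against 1.15% of all transcripts called.

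**Figure D3:**
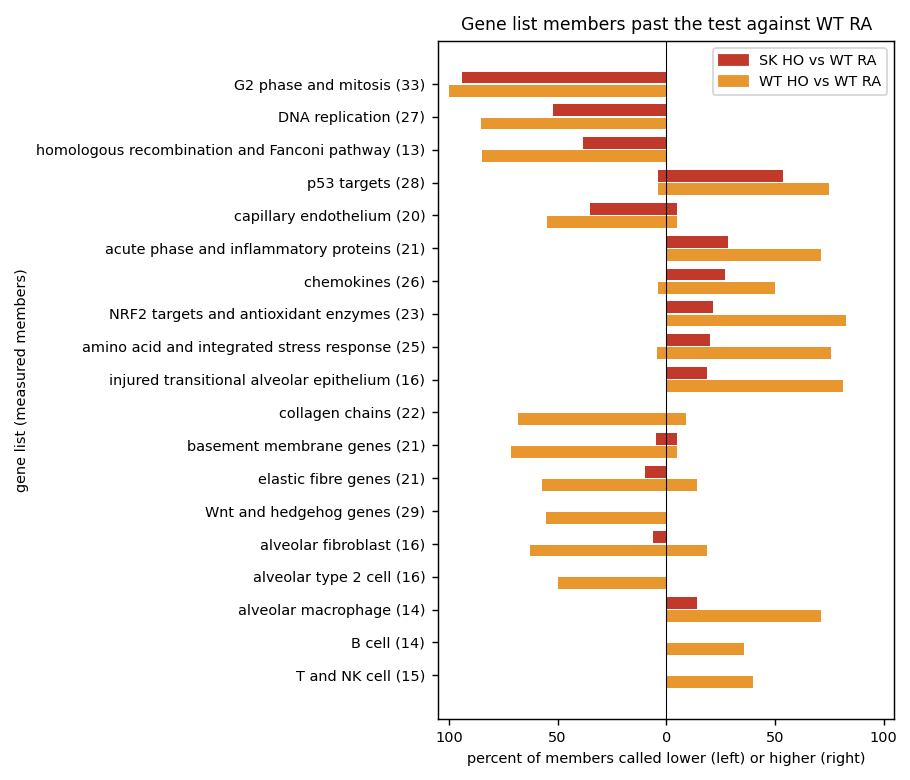
Percent of the measured members of each gene list that passed the test against WT RA, lower to the left and higher to the right, in SK HO (red) and in WT HO (orange). In SK HO, 31 of 33 mitotic genes were lower and 15 of 28 p53 targets higher, against 2.01% of all transcripts called. No collagen chain and no Wnt or hedgehog gene passed, which at that share is no result about these lists.

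Targets of p53 were higher. Of 28 measured, 15 were higher and 1 lower in SK HO than in WT RA (57.1% called, against 2.01% of all transcripts, median 0.97). Cdkn1a was at 10.48, 10.54 and 10.33 in SK HO, against 7.87, 7.65 and 7.20 in WT RA (7.34-fold higher, log2 difference 2.88, standard error 0.19, adjusted p = 8.17e-05). Ccng1, cyclin G1, was at 10.33, 10.72 and 10.41 in SK HO, against 8.06, 8.09 and 8.37 in WT RA (4.96-fold higher, adjusted p = 8.17e-05). Zmat3, an RNA-binding protein of the p53 response, was at 8.92, 8.89 and 8.98 in SK HO, against 6.75, 6.53 and 6.71 in WT RA (4.81-fold higher, adjusted p = 1.84e-05). In none of these did the groups come within a log2 unit of each other.

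Psrc1, a microtubule-binding protein induced by p53, was at 7.38, 7.78 and 7.52 in SK HO, against 5.45, 5.66 and 5.44 in WT RA (4.12-fold higher, adjusted p = 0.000119). Mdm2, the ubiquitin ligase that degrades p53, was 2.28-fold higher (adjusted p = 0.00327), Polk, a polymerase that copies past DNA lesions, had a log2 difference of 1.54, the death receptor Tnfrsf10b of 1.38, Sesn2 of 1.36 and Phlda3, an inhibitor of Akt, of 1.21. The member that was lower was Ckap2 (-0.56, adjusted p = 0.047), a protein of the mitotic spindle, which passed in no fit that left out 1 array. Of the apoptosis genes on the list, Bbc3, Pmaip1 and Fas had log2 differences of 0.27, 0.34 and 0.41 and did not pass (adjusted p = 0.51, 0.37 and 0.44). Bax, another of them, had no transcript with 1 gene symbol and was not counted. The paper's own array and RT-PCR values put Bax higher in SK HO than in WT RA. The values given here are therefore no result about apoptosis genes as a set. Higher members numbered 12 to 15 in the fits that left out 1 array. In WT HO against WT RA, 21 of the 28 were higher and 1 lower, with a median of 1.18, against 14.9% of all transcripts called. Between the exposed groups themselves, 3 were higher and 4 lower in SK HO than in WT HO, against 5.74% of all transcripts called. Cdkn1a differed there by -0.12 (95% interval -0.54 to 0.30, adjusted p = 0.8), while Eda2r was higher in SK HO by 0.72 (adjusted p = 0.0387) and Psrc1 by 0.86 (adjusted p = 0.00569). Set against SK RA, 14 of the 28 were higher and 1 lower in SK HO, against 2.34% of all transcripts called. In SK RA against WT RA, where 1.15% were called, 1 was higher and 1 lower.

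A response element of p53 is built of paired decamers. The decamer consensus, searched by its letter code on both strands, was in 35.7% of the 28 RefSeq promoters found for 21 of the 28 genes, against 8.36% of all promoters of the same length. The windows of Cdkn1a and Ccng1 are given as the targets called higher with a decamer in the first promoter listed and the smallest adjusted p. The same chromosome was left out of the choice as above. Decamers that match are in capitals, over the same 220 bases as above.
Cdkn1a (chr17:29090779-29090998, plus strand): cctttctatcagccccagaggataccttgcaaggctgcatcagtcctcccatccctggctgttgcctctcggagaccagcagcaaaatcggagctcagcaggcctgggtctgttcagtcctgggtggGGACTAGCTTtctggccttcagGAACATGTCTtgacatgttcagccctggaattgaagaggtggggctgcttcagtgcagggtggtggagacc
Ccng1 (chr11:40755267-40755486, minus strand): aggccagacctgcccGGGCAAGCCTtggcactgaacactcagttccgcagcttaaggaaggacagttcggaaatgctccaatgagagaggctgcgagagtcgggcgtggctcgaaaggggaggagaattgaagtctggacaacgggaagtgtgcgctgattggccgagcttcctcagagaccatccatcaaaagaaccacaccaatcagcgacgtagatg

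Genes of the capillary endothelium fell, in part. Of 20 measured markers, 7 were lower and 1 higher in SK HO than in WT RA, against 2.01% of all transcripts called (median -0.58). Kit, the receptor of stem cell factor that marks general capillary cells in lung, was at 6.57, 6.89 and 6.96 in SK HO, against 8.95, 8.66 and 8.92 in WT RA (4.10-fold lower, adjusted p = 8.17e-05). Gpihbp1, which anchors lipoprotein lipase to capillaries, was at 7.33, 7.36 and 7.20 in SK HO, against 8.57, 8.63 and 8.91 in WT RA (2.65-fold lower, adjusted p = 0.00102). Apln, the peptide ligand of Aplnr, was the 1 marker that was higher. It was at 10.01, 9.91 and 10.05 in SK HO, against 8.45, 8.87 and 8.54 in WT RA (2.59-fold higher, adjusted p = 0.00575). The receptor and its ligand were thus opposite in the same lungs.

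The endothelin receptor Ednrb (-1.27), Tmem100 (-1.14), Ptprb (-0.73) and the transcription factor Sox17 (-0.63) were lower too. Ednrb did not pass without WT RA 2 (adjusted p = 0.0549). Of the markers shared by most endothelial cells, Pecam1, Cdh5 and Cldn5 did not pass, while Ptprb and Tek (given below) were lower. Pecam1 differed by -0.27 (95% interval -0.56 to 0.03), Cdh5 by -0.02 (-0.27 to 0.23) and Cldn5 by 0.06 (-0.30 to 0.42). Without 1 array, 5 or 6 markers were lower. Among 23 angiogenic factors and receptors, 3 were higher and 4 lower, against 2.01% of all transcripts called. Tek, the angiopoietin receptor, was 2.35-fold lower (log2 difference -1.23, adjusted p = 0.00271) and its activating ligand Angpt1 differed by -1.04 (adjusted p = 0.017), a call lost without WT RA 2, WT RA 3 or SK HO 2 (adjusted p = 0.06, 0.0737 and 0.0501). Angpt2, the ligand that opposes it, was at 7.59, 8.31 and 7.78 in SK HO, against 5.52, 5.99 and 6.19 in WT RA (3.99-fold higher, adjusted p = 0.00585). Vegfa was higher by 0.65 (adjusted p = 0.0354), and passed in no fit that left out 1 array (0.0517 to 0.144).

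Compared with WT HO, Aplnr was higher in SK HO by 1.71 (adjusted p = 0.00398), Tmem100 by 1.15 (0.0016) and Apln by 1.14 (0.00649), while Gpihbp1 was lower by 1.10 (log2 difference -1.10, adjusted p = 0.00135). Gpihbp1 differed by -0.30 in WT HO against WT RA and did not pass (adjusted p = 0.223). Kit differed by 0.37 between SK HO and WT HO and did not pass (adjusted p = 0.177). Of the 20 markers, 10 were lower and 1 higher in SK HO than in SK RA (2.34% of all transcripts called), and none passed in SK RA against WT RA.

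Inflammatory genes were higher in smaller numbers. Of 21 acute phase and inflammatory proteins, 6 were higher and none lower in SK HO than in WT RA, where 2.01% of all transcripts were called: Saa3, Serpina3n, Ptgs2, Ch25h, Lcn2 and Osmr. Lcn2, lipocalin 2, which binds bacterial siderophores, was at 9.51, 9.68 and 9.68 in SK HO, against 7.83, 8.17 and 8.03 in WT RA (3.05-fold higher, adjusted p = 0.000355). Il6 was at 3.56, 5.22 and 4.21 in SK HO, against 3.10, 3.00 and 2.89 in WT RA, and did not pass (log2 difference 1.33, adjusted p = 0.118). The list mean relative to WT RA was 0.65, 1.56 and 0.89 in SK HO 1, 2 and 3, with SK HO 2 the highest, and without SK HO 1 the number of higher members was 9.

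Of 26 chemokines, 7 were higher and none lower (median 0.82, against 2.01% of all transcripts called). Ccl3 was at 6.24, 7.05 and 7.33 in SK HO, against 4.40, 4.96 and 3.91 in WT RA (5.47-fold higher, adjusted p = 0.00312). Ccl2, the main attractant of monocytes, was at 4.99, 7.97 and 6.16 in SK HO, against 3.64, 4.01 and 4.03 in WT RA (5.58-fold higher, adjusted p = 0.042). Ccl17, Ccl9, Ccl6, Cxcl16 and Cxcl1 had log2 differences of 2.00, 1.62, 1.29, 1.08 and 0.92. The count was 3 in each fit that left out a WT RA array. In SK HO against WT HO, where 5.74% of all transcripts were called, 4 chemokines were lower and none higher, and of the 21 acute phase genes 4 were lower and none higher. Serpina3n was lower there by 2.55 (log2 difference -2.55, adjusted p = 0.0254) and Ptgs2 by 1.58 (log2 difference -1.58, adjusted p = 0.0107). Saa3 differed by 1.64 upward and did not pass (adjusted p = 0.0625). Of 19 interferon-stimulated genes, 3 were higher in SK HO than in WT RA (Ifi205, Ifit3 and Ifit1, log2 differences 1.58, 1.19 and 1.04). Rsad2 was lower (-1.34), and 2.01% of all transcripts were called in that comparison. The count of 3 was 0 without WT RA 1, WT RA 2 or SK HO 2, and 1 without SK HO 3.

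Of 23 NRF2 targets and antioxidant enzymes, 5 were higher and none lower in SK HO than in WT RA (median 0.56, against 2.01% of all transcripts called). Slc7a11, the cystine importer that feeds glutathione synthesis, was at 4.98, 6.47 and 5.98 in SK HO, against 3.63, 3.37 and 3.64 in WT RA (4.81-fold higher, adjusted p = 0.00632). Gclc, the catalytic subunit of the first enzyme of glutathione synthesis, was at 9.78, 11.08 and 10.11 in SK HO, against 8.72, 8.94 and 8.87 in WT RA (2.79-fold higher, adjusted p = 0.0165). The others were Hmox1, Ephx1 and Sod2, with log2 differences of 1.41, 1.18 and 0.76. Nqo1 and Srxn1 did not pass (0.75 and 0.62, adjusted p = 0.215 and 0.30). The count was 2, 3 and 3 without WT RA 1, 2 or 3, and Gclc did not pass in those fits (adjusted p = 0.0674, 0.0565 and 0.0578). Hmox1 passed in no fit that left out 1 array but that without SK HO 1 (adjusted p = 0.0408).

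Of 25 genes of the amino acid and integrated stress response, which slows protein synthesis under stress, 5 were higher and none lower (median 0.36). The share of all transcripts was 2.01%. The 5 were Sesn2 (1.36), Atf3 (1.22), Atf5 (1.01), Ddit3 (1.00) and Asns (0.91). That number was 9 without SK HO 1 and 3 in each of the other fits that left out 1 array. Set directly against WT HO, 11 of the 23 NRF2 genes and 14 of the 25 stress response genes were lower in SK HO and none was higher, against 5.74% of all transcripts called. In WT HO against WT RA, with 14.9% called, 19 of the 23 (median 1.28) and 19 of the 25 (median 1.32) were higher. Gclc was lower in SK HO than in WT HO by 1.21 (log2 difference -1.21, adjusted p = 0.0203), and Atf3 by 1.50 (log2 difference -1.50, adjusted p = 0.00644).

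**Figure D4:**
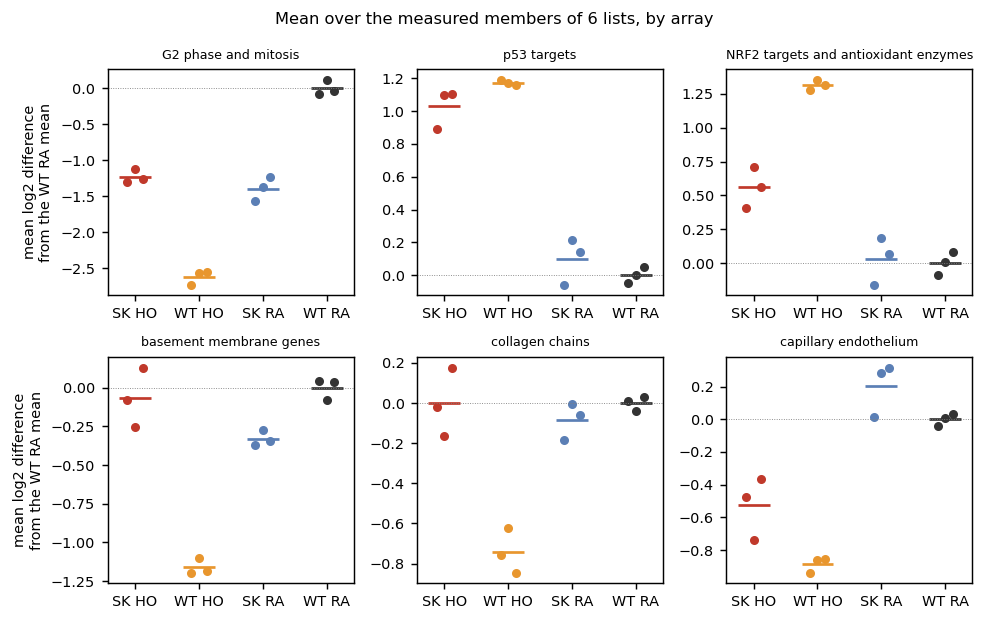
Mean log2 difference from the WT RA mean over the measured members of 6 gene lists (y axis), with 1 point per array and the group mean as a bar. Genes of the G2 phase and mitosis lie at -1.30 to -1.12 in the SK HO arrays. The basement membrane and collagen lists lie near 0 in SK HO and below it in WT HO. In SK RA the basement membrane list lies at -0.37 to -0.27.

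Of 22 collagen chains, none passed in SK HO against WT RA, where 2.01% of all transcripts did. Against that share a count of 0 in 22 is no result about the collagens. Their median was -0.12. Col1a1 was at 11.38, 10.74 and 11.50 in SK HO, against 11.49, 11.36 and 11.38 in WT RA (log2 difference -0.21, 95% interval -0.61 to 0.20). Col4a3, a chain of the alveolar basement membrane, averaged 9.18 ± 0.27 in SK HO and 8.93 ± 0.12 in WT RA (SD, n = 3 each; difference 0.25, 95% interval -0.12 to 0.62). The 3 arrays of SK HO overlapped those of WT RA in both genes, and the intervals leave out decreases as large as those of WT HO against WT RA, which were -1.61 for Col1a1 and -1.03 for Col4a3. In SK HO against WT HO, 13 collagen chains were higher and 1 lower, against 5.74% of all transcripts called. The mean over the 22 chains relative to WT RA was -0.02, -0.16 and 0.18 in SK HO, and -0.76, -0.62 and -0.84 in WT HO.

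Among 21 basement membrane genes, Lamb3, a chain of laminin-332, was higher (0.68, adjusted p = 0.0482) and Nid2, nidogen 2, lower (-0.87, adjusted p = 0.02). The share of all transcripts called was 2.01%, and the median over the list was -0.07. Lamb3 passed in no fit that left out 1 array, and Nid2 in none that left out a WT RA array (adjusted p = 0.0649, 0.0808 and 0.0714). Fras1, which anchors epithelium to the basement membrane, was at 8.43, 7.67 and 8.57 in SK HO, against 8.28, 8.11 and 8.12 in WT RA (0.05, 95% interval -0.44 to 0.54). In WT HO it was at 4.31, 4.91 and 4.72, and the difference SK HO minus WT HO was 3.58 (adjusted p = 1.75e-05). In all, 17 of the 21 were higher and 2 lower in SK HO than in WT HO, against 5.74% of all transcripts called. The list mean relative to WT RA was -0.08, -0.25 and 0.13 in SK HO, and -0.37, -0.27 and -0.34 in SK RA. In SK HO against SK RA, 5 were higher and 1 lower, against 2.34% of all transcripts called. None passed in SK RA against WT RA, where 1.15% were called.

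Of 21 elastic fibre genes, Mfap2 (-1.30) and Fbln2 (-1.04) were lower and none higher, against 2.01% of all transcripts called. Mfap2, a microfibril glycoprotein, did not pass without WT RA 1, 2 or 3 (adjusted p = 0.0695, 0.0662 and 0.0522), and Fbln2 not without WT RA 1 (0.0531). Eln, elastin, was at 11.70, 11.40 and 11.86 in SK HO, against 11.90, 11.83 and 11.95 in WT RA (-0.24, 95% interval -0.55 to 0.08). Of 29 Wnt and hedgehog genes, none passed (median -0.19). Against a share of 2.01% a count of 0 in 29 is no result about these genes. The lowest estimate was that of Wnt2 (-1.16, 95% interval -1.87 to -0.45, adjusted p = 0.11). In SK HO against WT HO, where 5.74% of all transcripts were called, 12 of the 29 were higher.

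Some genes differed in SK HO from each of the other groups. Ano3, a member of the anoctamin family of lipid scramblases and ion channels, was at 6.85, 6.26 and 7.06 in SK HO, against 3.80, 3.71 and 3.88 in WT RA (7.61-fold higher, log2 difference 2.93, standard error 0.18, adjusted p = 6.51e-05). It averaged 3.77 in WT HO and 3.81 in SK RA, and no array of those groups was above 3.92. SK HO was higher than WT HO by 2.96 (adjusted p = 1.75e-05) and higher than SK RA by 2.92 (adjusted p = 4.04e-05). Inhba, the subunit of activin A, was at 7.09, 7.36 and 7.30 in SK HO, against 4.98, 5.07 and 5.55 in WT RA (4.15-fold higher, adjusted p = 0.000931). It was higher in SK HO than in WT HO by 1.83 (adjusted p = 0.000464) and than in SK RA by 2.77 (adjusted p = 0.000136).

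The genes Mmp10, Spink5 and C7 were chosen after their values were seen, for their difference from each other group. Mmp10, stromelysin 2, was at 6.23, 6.46 and 6.33 in SK HO, against 4.97, 4.52 and 4.57 in WT RA (3.15-fold higher, adjusted p = 0.00246). Its difference was 1.66 against WT HO (adjusted p = 0.000773) and 1.67 against SK RA (adjusted p = 0.00195). Spink5, a serine protease inhibitor of epithelia, was higher than in WT RA by 1.42 (adjusted p = 0.00474) than in WT HO by 1.20 (adjusted p = 0.00487) and than in SK RA by 2.32 (adjusted p = 0.00026). Downward, C7, a terminal component of complement, was at 9.30, 8.05 and 9.16 in SK HO, against 10.47, 10.45 and 10.32 in WT RA (2.97-fold lower, adjusted p = 0.0175), and differed from WT HO by -2.23 (adjusted p = 0.000917) and from SK RA by -2.31 (adjusted p = 0.00195). Chad, chondroadherin, a matrix protein of cartilage, was at 6.01, 5.14 and 6.00 in SK HO, against 7.47, 7.71 and 7.29 in WT RA (3.42-fold lower, adjusted p = 0.00479), and differed from WT HO by -1.23 (adjusted p = 0.0145) and from SK RA by -1.98 (adjusted p = 0.00243). Gdf10, a TGF-beta family member, differed by -0.87 from WT RA (adjusted p = 0.0256) by -0.96 from WT HO (adjusted p = 0.00721) and by -1.17 from SK RA (adjusted p = 0.00568), and kept its call against WT RA only without SK HO 1 or SK HO 3.

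**Figure D5:**
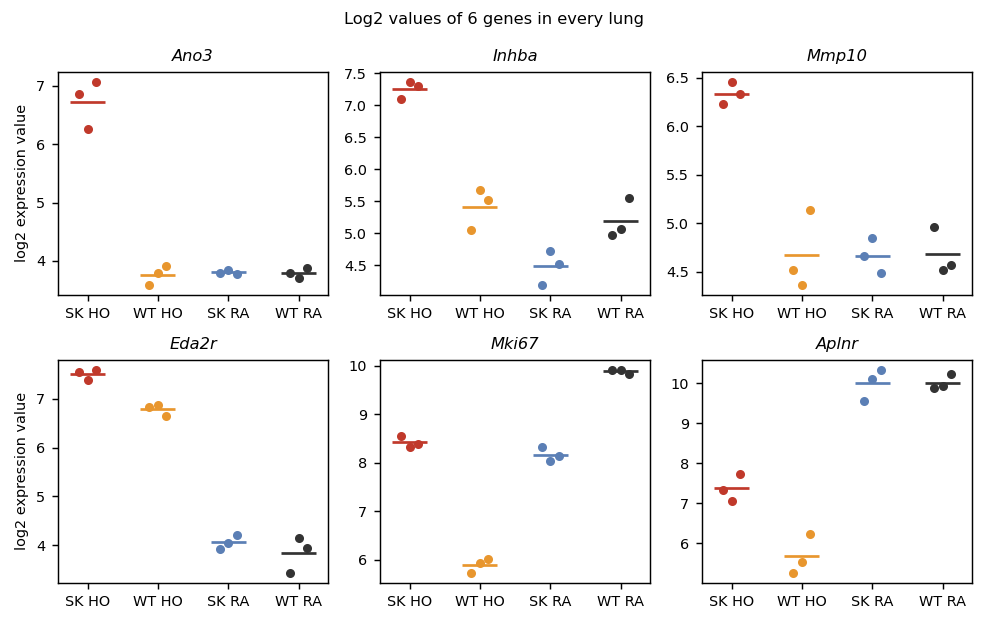
Log2 values of Ano3, Inhba, Mmp10, Eda2r, Mki67 and Aplnr in all 12 arrays (y axes do not start at 0), with 1 point per array and the group mean as a bar. Ano3, Inhba and Mmp10 are high in the SK HO arrays, Eda2r is high in both exposed groups, and Mki67 and Aplnr lie lowest in WT HO.

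Of 24 TGF-beta and activin genes, 4 were higher and 2 lower in SK HO than in WT RA, where 2.01% of all transcripts were called. Besides Inhba these were Ccn1 (1.33), Thbs1 (0.88) and Ccn2 (0.76), which are matricellular proteins, and, lower, Gdf10 and Tgfbi (-0.76). The count of 4 was 1, 2 and 2 without WT RA 1, 2 or 3, and 1 and 2 without SK HO 2 or SK HO 3. Igf2r, the receptor that clears IGF2, was at 9.65, 9.50 and 9.78 in SK HO, against 9.18, 9.17 and 9.02 in WT RA (0.52, adjusted p = 0.0491), and passed in no fit that left out 1 array (0.0587 to 0.168). It was lower in WT HO than in WT RA (-0.86, adjusted p = 0.000504).

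Markers of other lung cells and of blood cells were counted in SK HO against WT RA, where 2.01% of all transcripts were called. None of 16 type 2 cell markers and 2 of 14 type 1 cell markers passed. The type 1 cell markers called were Vegfa and Clic5 (0.54). Of 16 genes of injured transitional alveolar epithelium, 3 were higher (Cdkn1a, Clu and Itgb6) and none lower, with a median of 0.73. That count was 1 without WT RA 1, WT RA 3 or SK HO 2. Krt8, the keratin of these cells, was at 8.65, 10.25 and 8.89 in SK HO, against 8.69, 8.57 and 8.49 in WT RA, with SK HO 2 alone clearly above the WT RA lungs (0.68, adjusted p = 0.368). Of 16 alveolar fibroblast markers 1 was lower, the transcription factor Tcf21 (-0.99, adjusted p = 0.0331), which passed only without SK HO 1 among the fits that left out 1 array.

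Of 14 alveolar macrophage markers, 2 were higher, the scavenger receptor Marco (1.55, adjusted p = 0.00248) and Plet1 (0.92), and of 15 genes of monocytes and interstitial macrophages 1, Gpnmb (2.02, adjusted p = 0.00154). None of the 19 neutrophil and stefin A genes passed, with a median of 0.73, none of the 14 B cell and none of the 15 T and NK cell markers. The neutrophil list mean relative to WT RA was 0.34, 1.17 and 0.29 in SK HO, against -0.39, 0.09 and 0.30 in WT RA, with SK HO 2 the highest, as in the acute phase list. S100a8 was at 7.20, 8.73 and 7.00 in SK HO, against 5.68, 6.66 and 7.10 in WT RA. The part of these cells in the values of Saa3 and the chemokines was not tested. Among 8 erythroid genes 2 were lower, Slc4a1, the anion exchanger of red cells (-1.92, adjusted p = 0.00384), and Car2 (-1.17), which did not pass without WT RA 1, 2 or 3 (adjusted p = 0.0508, 0.0636 and 0.0544). Slc4a1 was lower without hyperoxia too, in SK RA against WT RA (-1.56, adjusted p = 0.0161). No adipocyte, cardiac, skeletal muscle or mesothelium marker passed.

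None of 23 genes that make, break down or sense sphingosine-1-phosphate and lysophosphatidic acid passed in SK HO against WT RA (median 0.14, range -0.37 to 0.64). With 2.01% of all transcripts called, a count of 0 in 23 is no result about these genes as a set. Sphk2, the other sphingosine kinase, was at 7.07, 7.40 and 7.37 in SK HO, against 7.04, 7.04 and 7.00 in WT RA (0.26, 95% interval -0.06 to 0.57), and S1pr1, the receptor of endothelium, differed by 0.32 (95% interval -0.04 to 0.68). In SK HO against WT HO, where 5.74% of all transcripts were called, 2 of the 23 were higher and 5 lower. BC018473 is not a member of this list and was chosen after its values were seen. It was at 5.01, 5.68 and 5.31 in SK HO, against 3.64, 3.45 and 3.54 in WT RA (3.46-fold higher, adjusted p = 0.000887). It was lower in SK HO than in SK RA (log2 difference -1.93, adjusted p = 0.000403) and higher in SK RA than in WT RA (3.71, adjusted p = 9.43e-06).

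Of 512 transcripts of miRNA genes, 5 passed in SK HO against WT RA (0.977%), 4 higher and 1 lower, against 2.01% of all transcripts. The array measures transcripts of the gene and not the mature miRNA. Mir27a was at 7.25, 7.26 and 7.04 in SK HO, against 5.88, 6.04 and 5.43 in WT RA (2.64-fold higher, adjusted p = 0.0268). In WT HO it averaged 7.98, and SK HO did not differ from WT HO past the threshold (-0.80, adjusted p = 0.136). Mir27a had the largest difference of the 5, and was chosen after its values were seen. Its mature products in RefSeq (GRCm38.p6, plus strand, chr8:84208685-84208706 for the 5p arm and chr8:84208727-84208747 for the 3p arm) are given with the seed, bases 2 to 8, in capitals.
mmu-miR-27a-5p: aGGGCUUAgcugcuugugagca
mmu-miR-27a-3p: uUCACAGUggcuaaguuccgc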

How the data were processed

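Lung RNA of 12 mice was hybridised to 12 Affymetrix Mouse Gene 2.0 ST arrays. The authors made the deposited log2 values with RMA background correction, quantile normalization and probe set summarization in Partek Genomics Suite. The sources used name no genome build. Of 41345 transcripts, 23521 had 1 gene symbol in the platform's gene table, 1820 had several and 16004 were not listed, and genes were named from the first kind only. The number of arrays limits the precision.

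The values were fitted with limma 3.58.1 (R 4.3.3) as 4 group means over all 12 arrays, which then share 1 estimate of the spread. P-values were Benjamini-Hochberg adjusted over all transcripts, with a threshold of 0.05. The fit was tested on simulated data. The RMS distances were compared by exact permutation tests. Alternatives were the prior, the arrays in the fit, filters, scaling, array weights, a Y-linked covariate, a replicate block and leaving out each SK HO or WT RA array.

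Genes named were the 15 called with the largest difference in each direction, up to 6 members of each of 42 lists with the smallest adjusted p, Sphk1, sex-linked genes and the study's RT-PCR panel. A gene with several transcripts was taken from the brightest. Members and lists were chosen with earlier results of these data known. Any other gene named, such as Pecam1, Col1a1, Plk1, Mdm2 or Krt8, was chosen after its values were seen.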

Additional observations from a re-analysis of the deposited data

Results flagged for a closer look

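In 10 of the 30 genes with the largest changes, the change from WT RA differed between SK HO and WT HO by the direct test of the difference (limma, adjusted p). Both changes are taken from the same 3 WT RA arrays.

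Among those higher in SK HO than in WT RA, Ano3 was higher than in WT HO by 2.96 (adjusted p = 1.75e-05), Inhba by 1.83 (adjusted p = 0.000464) and Eda2r by 0.72 (adjusted p = 0.0387). Serpina3n and Ptgs2 had log2 differences SK HO minus WT HO of -2.55 (adjusted p = 0.0254) and -1.58 (adjusted p = 0.0107).

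Among those lower in SK HO than in WT RA, Prss35 was higher than in WT HO by 2.20 (adjusted p = 0.026), Slitrk6 by 1.85 (adjusted p = 0.0205), Slc4a1 by 1.82 (adjusted p = 0.00201) and Aplnr by 1.71 (adjusted p = 0.00398). Chad was lower in SK HO than in WT HO (log2 difference -1.23, adjusted p = 0.0145).

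Igf2r was called in opposite directions in both exposed groups, at 0.52 in SK HO and -0.86 in WT HO against WT RA, and the difference SK HO minus WT HO was 1.38 (adjusted p = 9.86e-05). What these differences come from was not tested.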

How the results depend on the processing

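No transcript called in SK HO against WT RA changed direction under any of the 16 alternatives. For most of them this was fixed in advance, and no conclusion is drawn from it. The arrays of the called transcripts did not overlap, so that leaving out or weighting arrays could not turn a sign. A changed variance or filter left the difference itself as it was. The number of calls did change. The 831 calls became 292 when the fit held no array but the 6 of SK HO and WT RA, 519 with the Y-linked covariate, 1279 with array weights and 1282 with 1 transcript per named gene. They numbered 693 with the ordinary variance, 559 with centred arrays, 967 after a further quantile normalization, 981 with a trended and robust prior and 1242 without dim transcripts. Calls of at least 2-fold, 412, became 270 with the ordinary variance and 259 with the compared pair alone, which also gave 1178 calls in place of 2374 in SK HO against WT HO and 57 list genes called in place of 132. Without 1 array, the calls in SK HO against WT RA ranged over 332 to 745, those of at least 2-fold over 261 to 448, SK HO against WT HO over 1322 to 2964, WT HO against WT RA over 4318 to 6464, the list genes over 74 to 127 and the distance difference over -0.149 to -0.104, where leaving out SK HO arrays was added after seeing the data. The share of calls that were higher was 48.6%, but 59.9% without SK HO 1 and 37.8% without SK HO 3. Of the 104 named genes called, 47 kept their call with the compared pair alone, 79 with the Y-linked covariate and 60 to 92 without 1 array. The causes of these changes were not tested, save that fewer arrays leave fewer degrees of freedom.

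The main fit did not pair samples by replicate number. Array 1 had the highest median log2 value of its group in SK HO (4.89), WT HO (4.82), SK RA (4.99) and WT RA (4.85). It was also the highest of its group on the second principal component, at 48.9, 22.9, 72.0 and -13.4 in that order. Same-numbered arrays of SK HO and WT RA had correlations of their deviations of 0.208, -0.061 and 0.061. The best WT RA match had the same number for SK HO 1 and SK HO 3, and not for SK HO 2. What same-numbered arrays share was not tested. With the replicate block, 1004 transcripts were called, 516 higher and 488 lower, and 99 of the 104 named genes kept their call. Transcripts near the level of the olfactory receptors, whose median was 2.62 to 2.83 on the arrays, may lie at background.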

Other observations

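The genes in these paragraphs were chosen after their values were seen. Fos, Junb, Egr3, Fosb and Nr4a3 are immediate early genes, which are switched on within minutes of a stimulus; other genes of this kind were not counted. Fos was at 7.68, 8.16 and 8.03 in SK HO, against 6.29, 6.04 and 6.52 in WT RA (3.18-fold higher, adjusted p = 0.000931). Junb, Egr3, Fosb and Nr4a3 had log2 differences of 1.20, 1.18, 1.21 and 1.29 (adjusted p = 0.0148, 0.00754, 0.0171 and 0.031). Fos was lower in SK HO than in WT HO (log2 difference -1.22, adjusted p = 0.0017), and Egr3 and Fosb did not pass there (0.47 and 0.01, adjusted p = 0.178 and 0.983). Ccnd1, cyclin D1, which acts before DNA replication, was higher where the mitotic genes were lower, at 10.14, 10.16 and 10.24 in SK HO, against 9.23, 9.32 and 9.21 in WT RA (1.90-fold higher, adjusted p = 0.00749).

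Of the histone genes transcribed during DNA replication, H2ac10, H1f5 and H1f1 are given, and the others were not counted. H2ac10 was at 10.04, 9.82 and 9.70 in SK HO, against 11.58, 11.67 and 11.32 in WT RA (3.18-fold lower, adjusted p = 0.000248). The linker histones H1f5 and H1f1 had log2 differences of -1.43 and -1.25 (adjusted p = 0.0104 and 0.0235), and all 3 were higher in SK HO than in WT HO, by 1.61, 2.14 and 1.40 (adjusted p = 9.16e-05, 0.000344 and 0.00576). Malat1, a nuclear noncoding RNA like Neat1, had a log2 difference of 1.30 in SK HO against WT RA (adjusted p = 0.0324).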
